A study of Homo sapiens with 6 samples.

Results

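The genes described here were 8 recorded targets of YAP and TAZ, the transcriptional co-activators restrained by the Hippo pathway: CCN1, CCN2, ANKRD1, AMOTL1, AMOTL2, AMOT, AJUBA and AXL. They were taken by name from a list, a rule that uses no measured value, although the list was drawn up with earlier results of these data known. All 8 were found by gene ID among the 58302 genes of the deposited tables (GENCODE 29 gives CCN1 and CCN2 their older symbols, CYR61 and CTGF). All 8 passed the filter, which asked for an average of 1 FPKM or more (fragments per kilobase of exon, scaled to sequencing depth) over the 6 samples, as did 14462 genes in all. The study asked how gene expression differed in neuroblastoma cells after silencing of PRPF19, the gene of the splicing and ubiquitin ligase factor Prp19. RNA-seq was run on 3 samples of SK-N-BE(2) cells given a control siRNA (NC) and 3 given an siRNA to the gene (siPrp19), with 1 sample of each group under every replicate number from 1 to 3. SK-N-BE(2) is an established human neuroblastoma line grown in serum, and every sample came from this line and from siRNA transfection, for 72 h by the sample labels, while the text of the study gives another time. The labels do not say whether the numbered samples were separate cultures, so p-values measure only the spread between these samples, which may be technical.

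YAP and TAZ have no DNA-binding domain of their own, and they reach their targets through TEAD factors, which recognise the MCAT motif, often beside sites for AP-1. When the kinases LATS1 and LATS2 are active, YAP and TAZ are phosphorylated and held outside the nucleus, and the targets are transcribed less. Several targets act back on the pathway: the angiomotins hold YAP at cell junctions, and AJUBA, a LIM protein, restrains LATS.

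Reads assigned to genes, recovered from the FPKM steps, ranged from 19058757 to 24181776 per sample. The siPrp19 samples held 49.0% of the NC mean FPKM of PRPF19, with every siPrp19 sample below every NC sample. All 8 adrenergic neuroblastoma markers and 7 of 8 mesenchymal markers averaged 1 FPKM or more, whereas 0 of 3 endothelial and 0 of 3 leukocyte markers did. PECAM1 and CDH5 were at or below 0.1 FPKM throughout, and CD3E was listed at 0. The summed mesenchymal markers spanned 438 to 555 FPKM in NC and 445 to 520 FPKM in siPrp19, and the adrenergic ones 873 to 1225 FPKM and 911 to 1237 FPKM, so both ranges overlapped. Same-numbered NC and siPrp19 samples deviated together from their group means, and the fit with the replicate number as a block is therefore given beside each result it touches.

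CCN2 and ANKRD1 had the largest differences among the 8 genes, at 50.8% and 48.1% of the NC mean FPKM in siPrp19, and the siPrp19 sample was the lower one in every pair. CCN1 was lower by less, and the angiomotins, AJUBA and AXL stayed between 90.7% and 94.9% of their NC means. For each of the 8 genes the range of the 3 pair means exceeded the size of the siPrp19 change, as it did in 91.5% of tested genes. In the fit without the block, limma with Benjamini-Hochberg adjustment called 0 of the 8 members and 0% of the 14462 genes, and at an unadjusted p under 0.05 it held 0 of the 8 and 225 genes (1.56%). With the replicate block limma again called 0% of genes at an adjusted p under 0.05. Neither of these limma fits called PRPF19, the silenced gene, although its log2 fold change was −1.04. Its limma adjusted p was 0.9999 without the block and 0.19 with it, so a member not called by limma is not thereby shown to be unchanged. Voom, run on the recovered reads and blocked by replicate number, called 7.52% of 13605 genes and 4.52% as lower. In that voom fit 3 of the 8 members were called, all lower: CCN1, CCN2 and ANKRD1.

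**Figure D1:**
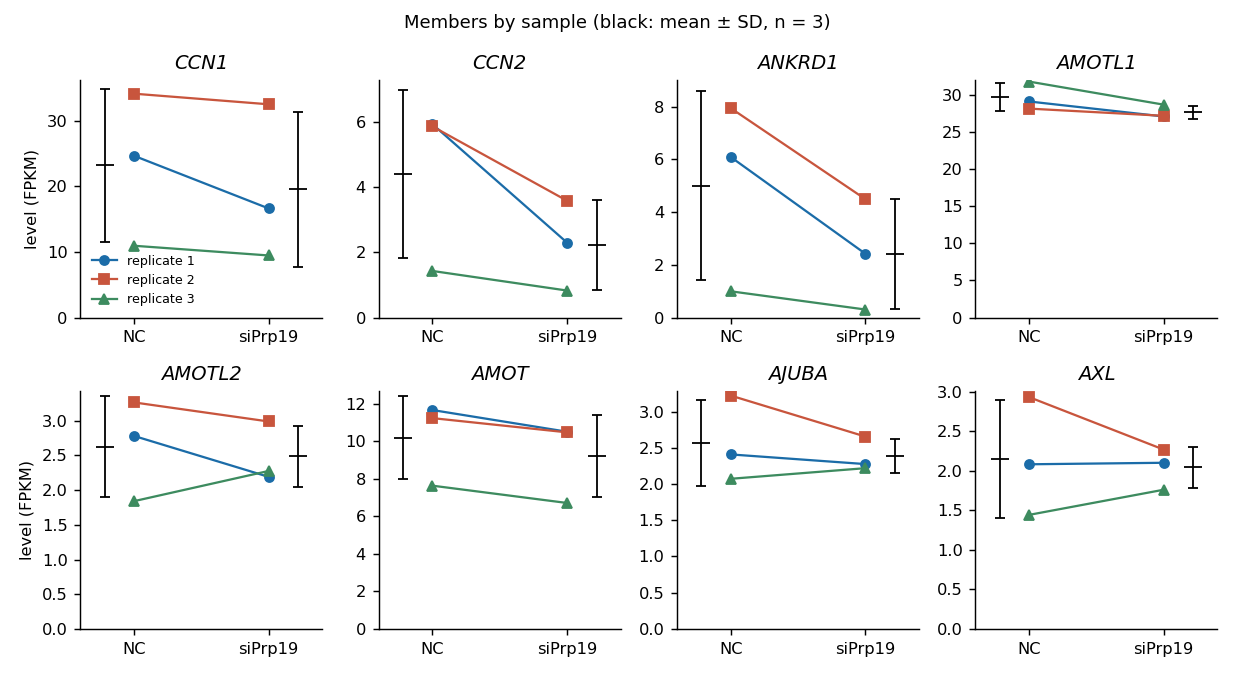
FPKM of each of the 8 genes in every sample, on axes that start at 0, with NC and siPrp19 samples of the same number joined and black bars for the mean ± SD (n = 3). The lines of CCN1, CCN2 and ANKRD1 slope downward in all 3 pairs, with replicate 3 well below the others, whereas those of AMOTL1 lie close together between 27.1 and 31.8 FPKM.

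Among the 7 genes with a promoter window, the 2 with the largest differences held the most MCAT motifs, and their upstream sequences are shown for that reason. A link between motif number and size of change was not tested. RefSeq promoter windows (GRCh38.p14, 250 bases before to 50 after a start) matched 7 of the 8 genes by symbol, with 10 windows in all, and did not match CCN1. The motif GGAATG was searched on both strands, as was the AP-1 type motif TGANTCA, which can share 2 end bases with it but did not in these windows. CCN2 held 3 copies of GGAATG, at 169, 104 and 95 bases before its start. ANKRD1 held 2, at 220 and 128 bases before its start, with 1 TGANTCA at 195 bases, where the letters read TGATTCA. Among 35116 windows of this length, 14.0% held at least 1 GGAATG, 1.37% at least 2 and 0.128% at least 3, while 7.71% held TGANTCA and 1.45% held both. The 250 bases before the start are given 5′ to 3′ on the gene's strand, with motifs in capitals, for CCN2 (chr6:131951373-131951622, minus strand) and ANKRD1 (chr10:90921088-90921337, minus strand). In the ANKRD1 sequence only GGAATG is in capitals.
CCN2: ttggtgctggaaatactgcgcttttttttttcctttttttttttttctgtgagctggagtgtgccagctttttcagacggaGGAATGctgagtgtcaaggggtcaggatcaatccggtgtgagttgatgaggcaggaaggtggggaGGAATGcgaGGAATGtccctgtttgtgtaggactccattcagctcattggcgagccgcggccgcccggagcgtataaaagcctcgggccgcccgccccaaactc
ANKRD1: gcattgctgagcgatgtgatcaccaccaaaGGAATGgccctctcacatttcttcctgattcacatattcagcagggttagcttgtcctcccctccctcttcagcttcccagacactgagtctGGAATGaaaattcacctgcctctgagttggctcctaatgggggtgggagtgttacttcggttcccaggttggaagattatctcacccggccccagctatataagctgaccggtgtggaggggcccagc

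Among the other members 1 copy was found at the second listed start of AMOTL2, AJUBA and AXL, and no copy at their first starts or in the windows of AMOTL1 and AMOT. The copies lay 69 bases before the start in AMOTL2 and 212 in AXL, both on the opposite strand and so read as CATTCC, and 59 bases before it in AJUBA on the gene's strand. The 30 bases around each are shown to set them beside the copies of CCN2 and ANKRD1, for AMOTL2 (chr3:134374499-134374528, minus strand), AJUBA (chr14:22976884-22976913, minus strand) and AXL (chr19:41226531-41226560, plus strand).
AMOTL2: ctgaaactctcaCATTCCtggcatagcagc
AJUBA: gggaagttggctGGAATGaagccaaagcaa
AXL: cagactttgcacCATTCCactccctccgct

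A match describes the letters only and does not show that a TEAD factor or AP-1 binds there. The RefSeq starts can lie inside the gene as GENCODE 29 gives it. That of AMOTL1 was chr11:94768356, in a gene that begins at 94706431, and the sequence before 94706431 was not searched. That of ANKRD1 was chr10:90921087, in a minus-strand gene that reaches 90921276. Among 17 further YAP/TAZ targets described later, 12 matched a window. Of these, 0 of the 6 tested for a change held GGAATG, the called genes IGFBP3, NT5E and RBMS3 included, while it was held by 5 of the 6 that were below the filter (LATS2, FOXF2, PTPN14, NUAK2 and TGFB2).

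**Figure D2:**
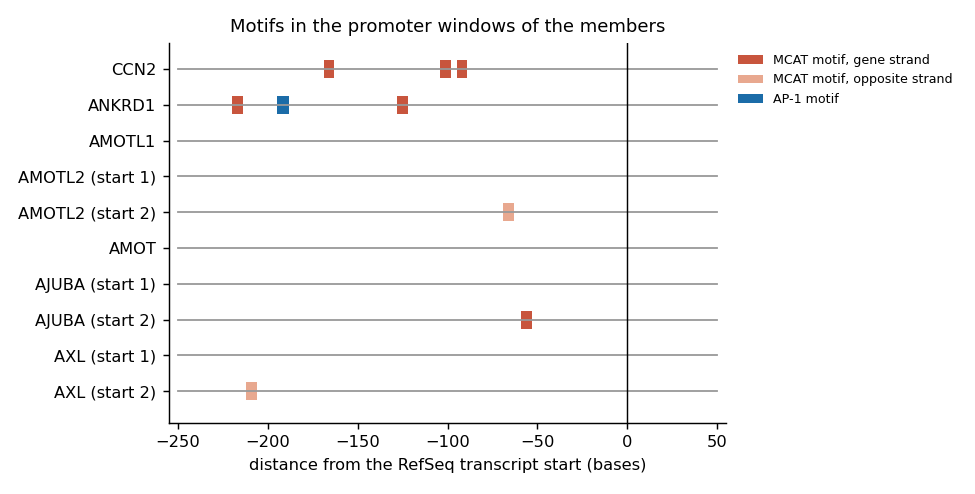
Positions of MCAT and AP-1 motifs in the 10 RefSeq promoter windows of the members, as distance in bases from the start, with 1 line per window. CCN2 carries 3 MCAT motifs and ANKRD1 carries 2, with 1 match to the search pattern TGANTCA drawn as AP-1, and no other window carries more than 1 motif.

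The members differed widely in level. On the FPKM scale, which is per length, AMOTL1 had the highest NC mean (29.7 ± 1.89 FPKM, SD, n = 3), at the 90.4th percentile of tested genes, and AXL the lowest (2.15 ± 0.747 FPKM), at the 22.1st percentile. Between them came CCN1 (23.2 ± 11.6 FPKM), AMOT (10.2 ± 2.21 FPKM), ANKRD1 (5.01 ± 3.60 FPKM), CCN2 (4.40 ± 2.57 FPKM), AMOTL2 (2.63 ± 0.723 FPKM) and AJUBA (2.57 ± 0.590 FPKM). Neighbours in this order overlapped in their NC ranges throughout. Within samples, CCN1 was above AMOT, AMOT above ANKRD1 and AJUBA above AXL in 3 of 3 NC samples, and the other neighbours kept their order in 2 of 3. The lowest NC value of AMOTL1 lay above every NC value of every member except CCN1.

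CCN2 and CCN1 encode secreted matricellular proteins that bind integrins, and both are widely used as readouts of YAP activity. CCN2 (ENSG00000118523; GRCh38, GENCODE 29, chr6:131948176-131951373, minus strand) stood at 5.92, 5.85 and 1.43 FPKM in NC replicates 1 to 3 and at 2.30, 3.58 and 0.827 FPKM in the siPrp19 samples with the same numbers. The 2 groups overlapped, since NC replicate 3 lay below siPrp19 replicates 1 and 2, but within each pair the siPrp19 sample was the lower one, at 38.8%, 61.1% and 58.0% of its NC partner. The log2 fold change was −0.91 ± 0.70 (SE) without the block and −0.91 ± 0.16 with it, with a 95% interval of −1.32 to −0.51 in the blocked fit. Its adjusted p (limma, Benjamini-Hochberg) was 0.9999 without the block and 0.196 with it. On 48 to 302 recovered reads per sample, CCN2 fell by 0.98 on the log2 scale in voom with the block, at an adjusted p of 0.000102. It was still called by voom without any 1 pair (adjusted p 0.0194, 0.00488 and 4.5e-08 without replicates 1, 2 and 3). Each such refit keeps 2 pairs and 1 residual degree of freedom. Its p-value thus rests mostly on variance pooled over genes, and a smaller one is not stronger evidence than the full fit gives. Limma with the block did not call CCN2 in the matching refits (adjusted p 0.507, 0.363 and 0.244). AL133346.1, an antisense gene, shares 195 bases (8.34%) of the CCN2 exons and never exceeded 0.291 FPKM. Whether the counting used strand, and how reads in the shared bases were assigned, is not stated.

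CCN1 (ENSG00000142871; chr1:85580761-85583962, plus strand) was measured at 24.6, 34.1 and 10.9 FPKM in NC replicates 1 to 3 and at 16.6, 32.5 and 9.46 FPKM in siPrp19. The siPrp19 samples again lay below their partners, at 67.5%, 95.3% and 86.5%, although the group ranges nearly coincided. Its log2 fold change of −0.28 had an SE of 0.56 without the block and 0.10 with it (95% interval −0.55 to −0.01, adjusted p 0.307 by limma). In voom with the block CCN1 fell by 0.27 on the log2 scale (adjusted p 0.0282). That call rested on replicate 1, since without that pair the value was −0.13 with an adjusted p of 0.685. In the fit without the block, leaving out NC replicate 2 or siPrp19 replicate 3 made the fold change positive (0.07 and 0.15).

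ANKRD1 encodes an ankyrin repeat protein of the nucleus and the sarcomere, and is a further common YAP readout. The gene (ENSG00000148677; chr10:90912096-90921276, minus strand) had 6.09, 7.95 and 0.996 FPKM in NC and 2.42, 4.50 and 0.306 FPKM in siPrp19. Both replicate 3 samples were far below the others, and the siPrp19 sample was lower in every pair, at 39.8%, 56.6% and 30.7% of its partner. The log2 fold change was −1.18 ± 1.08 (SE) without the block and −1.18 ± 0.15 with it (95% interval −1.57 to −0.79). By unadjusted p in the blocked limma fit ANKRD1 ranked 34 of 14462 genes, but its adjusted p was 0.19, a value it shared with 125 further genes as the smallest in that fit. In voom with the block ANKRD1 fell by 1.08 on the log2 scale, with an adjusted p of 5.52e-05. That voom call held without any 1 pair, the largest adjusted p being 0.00444, with the same limit on such refits as for CCN2. Limma with the block did not call ANKRD1 in the matching refits (adjusted p 0.507, 0.323 and 0.244 without replicates 1, 2 and 3). The replicate 3 values rested on few reads, with 39 in NC (exact Poisson 95% interval 0.708 to 1.36 FPKM, counting error only) and 15 in siPrp19 (0.171 to 0.504 FPKM).

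**Figure D3:**
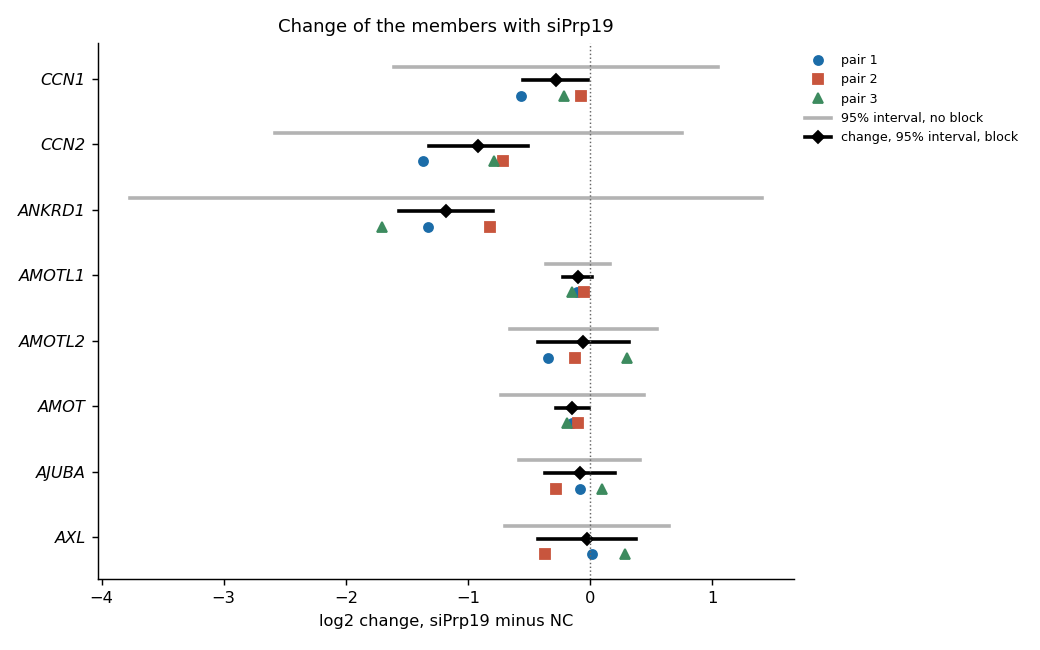
Change of each gene, siPrp19 minus NC on the log2 scale, with coloured points for the 3 pairs, black diamonds and bars for the change and its 95% interval in limma with the replicate block, and grey bars for the interval without it. The black intervals of CCN2 and ANKRD1 lie furthest below 0, those of AMOTL1, AMOTL2, AJUBA and AXL include 0, and every grey interval includes 0.

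The angiomotins are junction and actin-binding scaffolds that hold YAP and promote its retention outside the nucleus. AMOTL1 (ENSG00000166025; chr11:94706431-94876753, plus strand) had 29.1, 28.2 and 31.8 FPKM in NC and 27.1, 27.2 and 28.7 FPKM in siPrp19, and its pairs were lower at 93.1%, 96.6% and 90.2%. AMOT (ENSG00000126016; chrX:112774503-112840815, minus strand) had 11.7, 11.2 and 7.63 FPKM in NC and 10.5, 10.5 and 6.71 FPKM in siPrp19, with pairs at 90.1%, 93.3% and 87.9%. AMOTL2 (ENSG00000114019; chr3:134355874-134375479, minus strand) had 2.78, 3.26 and 1.84 FPKM in NC and 2.19, 2.99 and 2.28 FPKM in siPrp19. Its pairs went both ways, at 78.8%, 91.6% and 123.6%, while the other 2 angiomotins were lower in 3 of 3 pairs by small amounts.

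None of the 3 angiomotins passed the test of siPrp19 against NC at an adjusted p under 0.05, by limma or by voom. The blocked log2 fold changes were −0.14 for AMOT (95% interval −0.28 to −0.01), −0.10 for AMOTL1 (−0.22 to 0.02) and −0.05 for AMOTL2 (−0.43 to 0.32), with limma adjusted p of 0.304, 0.367 and 0.886. A decrease the size of that in CCN2 lies outside all 3 intervals. AMOTL1 rested on 4978 to 7146 recovered reads per sample and AMOTL2 on 218 to 372. RPL39P5, a ribosomal pseudogene on the same strand, shares 187 bases (3.13%) of the AMOTL2 exons and reached 1.07 FPKM. The antisense gene AP002383.2 shares 496 bases (4.94%) of those of AMOTL1 and reached 0.309 FPKM.

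AJUBA is a LIM-domain adaptor of cell junctions that binds and restrains LATS kinases, and AXL is a receptor tyrosine kinase for the ligand GAS6. AJUBA (ENSG00000129474; chr14:22971174-22982642, minus strand) had 2.41, 3.22 and 2.07 FPKM in NC and 2.27, 2.65 and 2.22 FPKM in siPrp19. AXL (ENSG00000167601; chr19:41219203-41261766, plus strand) had 2.08, 2.93 and 1.44 FPKM in NC and 2.10, 2.27 and 1.76 FPKM in siPrp19. For both genes the siPrp19 values lay within the NC range and had the smaller SD, 0.237 against 0.590 FPKM for AJUBA and 0.259 against 0.747 FPKM for AXL, a difference in spread that was not tested. The pairs went both ways, with AJUBA at 94.5%, 82.4% and 107.1% and AXL at 100.9%, 77.4% and 122.0%. The blocked intervals of the log2 fold change ran from −0.37 to 0.20 for AJUBA and from −0.43 to 0.38 for AXL (limma adjusted p 0.747 and 0.952). AXL rested on 147 to 266 recovered reads per sample and AJUBA on 245 to 339. The antisense gene AC011510.1 shares 67 bases (1.30%) of the AXL exons and reached 0.794 FPKM.

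Counted together, 5 of the 8 members were lower in 3 of 3 pairs (CCN1, CCN2, ANKRD1, AMOTL1 and AMOT), against 21.3% of all tested genes. All 8 log2 fold changes were below 0, as were 51% of those of all tested genes, with a median of −0.12 for the members and −0.004 for all genes. At an unadjusted p under 0.05 in the blocked limma fit stood 4 of the 8, all lower (CCN1, CCN2, ANKRD1 and AMOT), against 8.77% of tested genes in that direction. A log2 fold change below −0.5 was held by CCN2 and ANKRD1 and by 2.94% of tested genes. In 0 of the 8 did every siPrp19 sample lie below every NC sample, against 2.84% of tested genes. By the exact permutation test over samples, two-sided, the smallest p among the members was 0.2, for AMOTL1, where 3 against 3 samples cannot give less than 0.1. In these bulk samples, less RNA per cell and fewer cells expressing a gene cannot be told apart.

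For every member the pair means lay further apart than the group means. The range of the 3 pair means on the log2 scale exceeded the size of the siPrp19 change in 8 of 8 members, as it did in 91.5% of tested genes. That range was over 1 for 3 of the 8, at 3.19 for ANKRD1, 1.98 for CCN2 and 1.70 for CCN1, against 13.2% of tested genes. It was 0.66 for AXL, 0.62 for AMOT, 0.59 for AMOTL2, 0.43 for AJUBA and 0.13 for AMOTL1, and its median was 0.64 over the members and 0.46 over all tested genes. The F test of the replicate number in limma with the block called CCN1, CCN2, ANKRD1 and AMOT (adjusted p 0.0032, 0.00435, 0.00182 and 0.00453), which is 4 of 8 against 49.6% of tested genes. In voom it called 7 of 8 against 63.7%, all but AMOTL1. Replicate 3 was lowest in both groups for 6 of the 8, all but AMOTL1 and AMOTL2, against 27.7% of tested genes. Without the replicate 3 pair the limma F test kept CCN1 (adjusted p 0.0423) and lost CCN2 (0.29), ANKRD1 (0.0599) and AMOT (0.757). The matching voom F test kept CCN1 (adjusted p 1.53e-17), ANKRD1 (0.00235), AMOTL2 (0.0329) and AJUBA (0.04996). It lost CCN2 (0.333), AMOT (0.531) and AXL (0.111).

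YAP1 itself did not share that order: it stood at 1.20, 1.95 and 1.61 FPKM in NC and 0.524, 1.18 and 0.743 FPKM in siPrp19, lowest in replicate 1 in both groups. AMOTL1 ran against the others, being highest in replicate 3 in both groups. What the replicate numbers mark is not given by the labels, and its part in these levels was not tested.

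**Figure D4:**
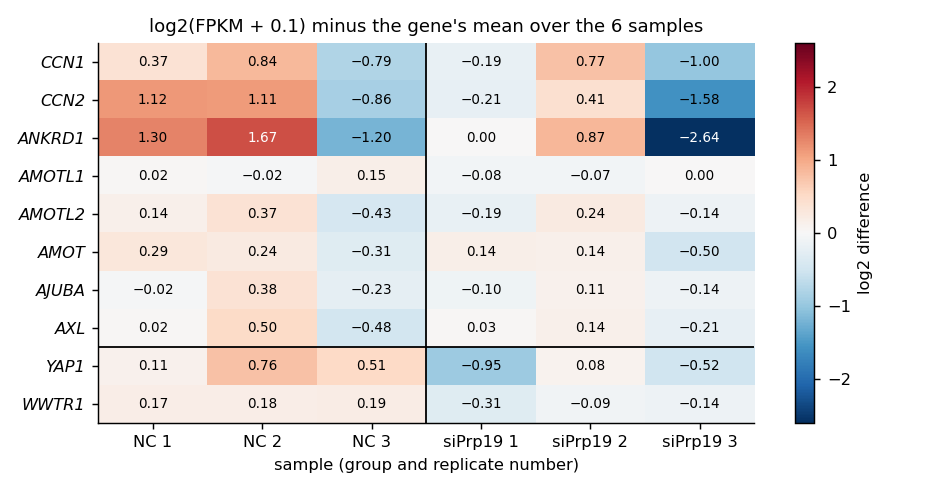
Level of each gene in every sample relative to the gene's own mean, on the log2(FPKM + 0.1) scale, with the value in each cell and with YAP1 and WWTR1 below the line. Replicate 3 is the lowest of both groups for CCN1, CCN2 and ANKRD1, reaching −2.64 for ANKRD1 in siPrp19, and is not the lowest for YAP1.

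Over the 6 samples, which share the replicate numbers and the siRNA contrast, log2(FPKM + 0.1) of CCN2 followed that of ANKRD1 most closely among members (Pearson r = 0.986), followed by ANKRD1 with AMOT (0.964) and CCN2 with AMOT (0.946). CCN1 had r = 0.945 with ANKRD1 and 0.924 with CCN2, and AJUBA had 0.942 with AXL. AMOTL1 had negative r with all other members, from −0.70 to −0.32. With YAP1 the values were lower, at 0.42 for CCN1, 0.46 for CCN2 and 0.43 for ANKRD1. Among all tested genes the most alike were PPP3CC, TMF1 and CNOT8 for CCN1, TMEM64, FAM174B and MTUS1 for CCN2, and GALK2, PPAT and TGFB3 for ANKRD1. They were AMMECR1, ZFAND6 and MLEC for AMOTL1, KXD1, AKAP13 and SLC12A4 for AMOTL2, and SNHG16, ENSG00000280828 and LIG1 for AMOT. For AJUBA they were ZNF2, PANX2 and RPL6P19, and for AXL BET1, ENSG00000250027 and INSR. With 6 samples such values are common: r was over 0.95 for 54 genes with AMOTL1 and for 697 with CCN1.

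Another 17 recorded YAP/TAZ targets were listed, and 11 of them reached the filter, with 8 log2 fold changes under 0, 3 over it and a median of −0.16 (−0.004 over all tested genes). In limma 0 of the 11 were called without or with the block. Lower in 3 of 3 pairs were 6 and higher in 3 of 3 was 1, against 21.3% and 19.2% of all tested genes. In voom with the block 4 of 10 were called lower, namely CRIM1, NT5E, IGFBP3 and RBMS3, and 0 higher, against 4.52% and 3% of all genes in that fit, and 2 of the 10 had a value above 0. CRIM1, a transmembrane regulator of BMP ligands, had 4.02, 4.98 and 2.52 FPKM in NC and 1.98, 3.45 and 1.65 FPKM in siPrp19, a log2 fold change of −0.69. NT5E, the surface enzyme CD73, had 8.42, 7.40 and 7.34 FPKM in NC and 6.30, 5.10 and 5.28 FPKM in siPrp19, without overlap of the groups (−0.47). IGFBP3, a secreted binding protein of insulin-like growth factors, stood at 64.2, 78.0 and 94.4 FPKM in NC and at 46.0, 62.6 and 71.3 FPKM in siPrp19 (−0.40), highest in replicate 3, where CCN1, CCN2 and ANKRD1 were lowest. RBMS3, an RNA-binding protein, had a value of −0.24. ARHGEF17, chosen after its values were seen, had the opposite sign, with 23.9, 23.0 and 21.9 FPKM in NC and 26.9, 26.4 and 27.5 FPKM in siPrp19 (0.23, limma adjusted p 0.211 with the block).

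**Figure D5:**
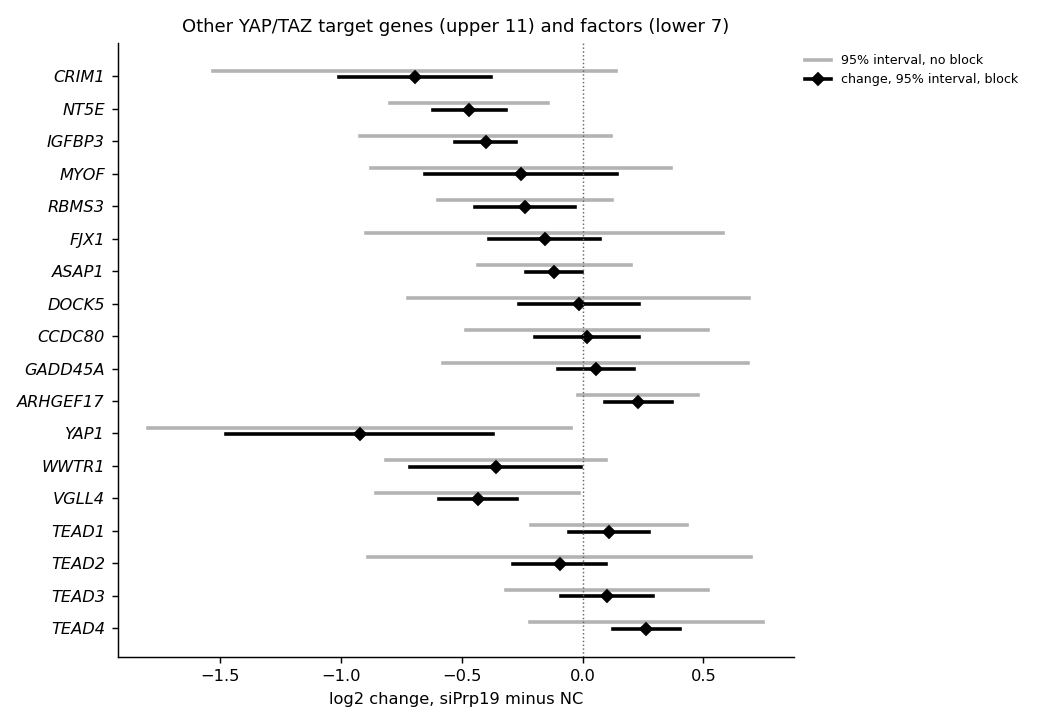
Change of the 11 further YAP/TAZ targets tested (upper rows) and of 7 pathway factors (lower rows), siPrp19 minus NC on the log2 scale, with 95% intervals in limma with the replicate block (black) and without it (grey). Among the targets CRIM1 is the lowest at −0.69 and ARHGEF17 the highest at 0.23.

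Of 19 relatives and partners of the members, 12 were tested, 6 below 0 and 6 above, and limma called 0 with or without the block. In voom with the block YAP1 fell by 0.98 on the log2 scale, VGLL4, a TEAD-binding competitor of YAP, by 0.43, and WWTR1, the gene of TAZ, by 0.38, while TYRO3, a receptor kinase of the AXL family, rose by 0.25. WWTR1 had 1.82, 1.84 and 1.86 FPKM in NC and 1.28, 1.50 and 1.46 FPKM in siPrp19, with no overlap between groups and no order by replicate number like that of CCN2. The TEAD genes had log2 fold changes of 0.11 (TEAD1), −0.09 (TEAD2), 0.10 (TEAD3) and 0.26 (TEAD4), and GAS6, the ligand of AXL, had 0.19. None of these 5 passed. Of the CCN family, CCN3 lay between 0.198 and 0.648 FPKM, and CCN5 and CCN6 stayed below CCN3 in level, so CCN1 and CCN2 were the family members with a mean above 1 FPKM.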

How the data were processed

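RNA was measured by RNA-seq in SK-N-BE(2) cells, 3 NC and 3 siPrp19 samples, paired by the replicate number in the labels. The tables the authors deposited, 1 for each sample, list genes with their FPKM. The submitters' processing notes name HISAT2 2.0.5, featureCounts 1.5.0-p3 and hg38, and the annotation release is not given in the sources used here. GENCODE 29 was used for names and exon lengths and matched 58039 of 58302 gene IDs. Whole reads were recovered from the FPKM steps for 95.8% of the 37521 matched genes above 0 (tolerance 0.02 reads), which gave 19058757 to 24181776 reads on genes per sample.

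Values were scaled by median of ratios and tested as log2(FPKM + 0.1) with limma 3.58.1 (R 4.3.3, trended variance), on the 14462 genes averaging 1 FPKM or more, without a block, with Benjamini-Hochberg adjustment at 0.05. A fold change on this scale understates that of low genes. Same-numbered samples deviated from their group means together (r = 0.381, 0.568 and 0.64), so the replicate block is printed too. Alternatives were the block, voom on the recovered reads with TMM scaling, a pseudocount of 1, no filter, an average of 5 FPKM or more, TPM, quantile normalisation and each sample or pair left out. Scripts were tested on simulated data. Genes are named by a rule: all members, list genes called in any fit, and the 3 genes most alike to each member. ARHGEF17, the TEAD genes, GAS6 and the other CCN genes fall outside it and were chosen after their values were seen. The members and lists were chosen with earlier results of these data known. Promoter sequences came from RefSeq (GRCh38.p14). Intervals on reads cover counting error only.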

Additional observations from a re-analysis of the deposited data

How the results depend on the processing

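Direction was kept by CCN2, ANKRD1 and AMOTL1 under every alternative run. Leaving out 1 sample in the fit without the block moved the log2 fold change of CCN1 between −0.75 and 0.15, of CCN2 between −1.57 and −0.35, of ANKRD1 between −2.07 and −0.16, of AMOTL1 between −0.14 and −0.05, of AMOTL2 between −0.28 and 0.12, of AMOT between −0.34 and 0.068, of AJUBA between −0.22 and 0.085 and of AXL between −0.27 and 0.22. With the replicate block and a pair left out the ranges were −0.39 to −0.14 for CCN1, −1.02 to −0.71 for CCN2, −1.36 to −1.05 for ANKRD1, −0.13 to −0.08 for AMOTL1, −0.23 to 0.084 for AMOTL2, −0.17 to −0.12 for AMOT, −0.17 to 0.0077 for AJUBA and −0.17 to 0.14 for AXL. With voom, the block and a pair left out, a choice made after seeing the data, they were −0.42 to −0.13 for CCN1, −1.20 to −0.73 for CCN2 (−1.01 without replicate 3), −1.37 to −0.93 for ANKRD1 (−1.03 without replicate 3), −0.22 to 0.060 for AMOTL2, −0.17 to 0.011 for AJUBA and −0.17 to 0.14 for AXL.

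The number of genes called was 0 by limma without the block, 1023 by voom with the block, 277, 303 and 1264 by voom with the block without pairs 1, 2 and 3, and 124 by limma with the block on genes averaging 5 FPKM or more, a filter that leaves out CCN2, ANKRD1, AMOTL2, AJUBA and AXL. Limma with the block on all 14462 genes called 0, as did every limma fit without 1 sample and every blocked limma fit without 1 pair. Blocked fits without 1 pair keep 2 pairs, so their p-values and counts rest mostly on variance pooled over genes. At an unadjusted p under 0.05 limma held 225 genes without the block and 2265 with it. By voom with the block the values were −0.27 for CCN1, −0.98 for CCN2 and −1.08 for ANKRD1, all newly called. Of the other YAP/TAZ targets 4 were called by voom with the block, 3 with a pair left out as well, and 2 by limma with the block on genes averaging 5 FPKM or more, and their median log2 fold change ran from −0.20 to −0.091 without 1 sample. The replicate number called 7175 genes, 4215 with no filter on low values and 6335, 3546 and 2543 without pairs 1, 2 and 3. With the block PRPF19, YAP1, WWTR1, VGLL4 and TYRO3 were called by voom too, and PRPF19 and VGLL4 by limma on genes averaging 5 FPKM or more, and the cause of these differences was not tested.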

Other observations

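CCN4, a secreted relative of CCN1 and CCN2, had 0.783 FPKM (72 reads) in NC replicate 2 and 1.00 FPKM (108 reads) in siPrp19 replicate 2, while the other samples held at most 4 reads and siPrp19 replicate 3 was listed at 0. It was chosen after its values were seen. Across all genes, 20 had both replicate 2 samples at 0.5 FPKM or more and at least 10-fold above the other 4 samples, most of them small RNA genes. Replicate 2 was the highest of both groups for the members CCN1, ANKRD1, AMOTL2, AJUBA and AXL. The share of all tested genes with that order was not counted.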
